A study of Mus musculus with 12 samples.

Results

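Nephron identity transcription factors were followed here through a mouse model of polycystic kidney disease by bulk RNA-seq of whole kidneys. The set is Hnf4a, Hnf4g, Maf, Pax2, Pax8, Lhx1, Tfap2b, Grhl2 and Gata3, chosen by gene name as regulators of proximal, distal and collecting duct identity. These 9 genes were each found once among the 54532 genes of the count table, and 9 of 9 were among the 24642 genes that passed the cutoff on low expression. Kidneys came from 12 mice on a C57BL/6 background (C57BL/6 J in the study's methods), killed at 18 days of age, in 4 groups of 3. Each mouse carried one Pkd1 RC allele, a hypomorphic missense allele, and one floxed Pkd1 allele (F). The noncystic groups had no Cre, so that their kidneys kept the floxed allele (Pkd1 RC/+), and had either Pkd2 +/+ or Pkd2 Δ17/Δ17. In the cystic groups Ksp-Cre, driven by the Cdh16 promoter in tubule and collecting duct epithelium, removed the floxed allele (Pkd1 RC/-), again with Pkd2 +/+ or Pkd2 Δ17/Δ17. The Δ17 allele lacks the binding motif for the microRNA miR-17 in the 3′-UTR of Pkd2. Presence of Cre and cystic disease coincide in every mouse and cannot be told apart.

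The kidney tubule is a chain of segments, and each segment keeps its transport programme under a small number of lineage transcription factors. Hnf4a, Hnf4g and Maf belong to the proximal tubule, where Hnf4a is needed for the maturation of proximal cells. Pax2, Pax8 and Lhx1 act early, in the formation of the nephron and the ureteric bud, and Pax2 and Pax8 stay on in mature tubules. Tfap2b works in the distal nephron, and Grhl2 and Gata3 in the distal nephron and collecting duct. Polycystic kidney disease, in which Pkd1 and Pkd2 encode polycystin-1 and polycystin-2, turns tubules into cysts and is accompanied by loss of differentiated transport.

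Because the deletion under study removes a miR-17 motif, the identity factors were searched for the same motif. The seed of miR-17-5p (bases 2 to 8, in capitals below) pairs with the motif GCACTTT, and 12.2% of 21148 genes held at least 1 such match in their longest annotated 3′-UTR. Among the 9 factors Maf and Grhl2 each held 1 match, and the other 7 held none. The Maf match lay in exon 1, 1443 nucleotides after the stop codon, at chr8:115704302-115704308 on the reverse strand of GRCm38. The Grhl2 match lay in exon 16, 1481 nucleotides after the stop codon, at chr15:37362332-37362338 on the forward strand. The match of unedited Pkd2, at chr5:104503821-104503827 on the forward strand, is shown beside them, with the motif in capitals in each and the DNA written 5′ to 3′. The Maf and Pkd2 matches are followed by A, and the Grhl2 match is not.
mmu-miR-17-5p: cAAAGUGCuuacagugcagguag
Pkd2: ttataattttctGCACTTTaatttatttta
Maf: gcctgctttgggGCACTTTaaattgtgcta
Grhl2: tttgtctgcgaaGCACTTTgatgttttacc

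The libraries held 18800307 to 24453033 counts per mouse. TMM factors, which correct for the make-up of a library, ran from 0.933 to 0.972 in noncystic and from 1.04 to 1.08 in cystic kidneys, so that scaling to library totals alone moved the median gene by 0.16 (log2) between cystic and noncystic Pkd2 +/+ kidneys. Every pair of mice within a group differed by more than counting noise (chi-square per degree of freedom of 9.65 to 26.8). The Pkd2 level was 194 to 219 CPM (TMM-scaled read counts on a common library size) in noncystic +/+ and 271 to 286 in noncystic Δ17/Δ17 kidneys. In cystic kidneys Pkd2 was at 213 to 233 CPM with +/+ and 307 to 337 with Δ17/Δ17, and so the genotype groups did not overlap in either state. The log2 difference was 0.40 ± 0.08 (SE) in noncystic kidneys, with an unadjusted edgeR p of 8.21e-05. It did not pass the test over all genes (edgeR adjusted p = 0.771). In cystic kidneys the difference of 0.53 ± 0.08 passed (edgeR adjusted p = 0.00249). These deletion effects differed from each other by 0.13 ± 0.11 (log2), which did not pass (edgeR adjusted p = 0.818). Whole-gene counts of Pkd2 do not show the deletion itself. Pkd1 was at 50.4 to 65.7 CPM in noncystic +/+ and 66.0 to 76.4 CPM in cystic +/+ kidneys, without overlap. This log2 difference of 0.26 ± 0.11 did not pass (edgeR adjusted p = 0.0775). Whole-gene counts of Pkd1 thus did not show the loss of the floxed allele. Cdh16, whose promoter drives the Cre, was at 1287 to 1615 CPM in all mice, and its fold change between cystic and noncystic Pkd2 +/+ kidneys did not pass the test (log2 0.13 ± 0.09, edgeR adjusted p = 0.284), although these groups did not overlap (1287 to 1432 CPM in noncystic and 1455 to 1531 CPM in cystic).

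The first question was how the identity factors stand in cystic kidneys. In cystic against noncystic Pkd2 +/+ kidneys 8 of 9 factors passed the threshold of 0.05 in edgeR's quasi-likelihood test, 4 of them higher (Pax2, Pax8, Grhl2 and Gata3) and 4 lower (Hnf4a, Maf, Lhx1 and Tfap2b). In the same comparison 31.1% of all genes tested passed, 16.9% higher and 14.2% lower. These were 4170 higher and 3495 lower genes, a split that became 6251 to 2468 with library totals. In a fit of the 14769 genes with at least 10 counts in every mouse, which held all 9 factors, 49.7% passed. The same 8 factors had no overlap between the 3 cystic and the 3 noncystic mice, as had 41.7% of all genes. The factor that did not pass was Hnf4g. Median fold changes over all genes were near 0 (log2 0.02).

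The other question was whether the Pkd2 motif deletion moved them. Between the cystic groups 2 of 9 factors passed, Tfap2b higher and Gata3 lower in Δ17/Δ17, against 2.23% of all genes (549 genes, and 118 to 861 when 1 of these 6 mice was left out). Those 2 were also the only factors without overlap between the groups, as were 19% of all genes. In the fit of genes with at least 10 counts in every mouse, 4.48% passed between the cystic groups. Between the noncystic groups 0 of 9 passed, against 0.00406% of all genes, and 10.8% of all genes had no overlap. In edgeR 1 of 9 (Pax2) had an unadjusted p below 0.05, as had 6.31% of all genes. DESeq2 and limma-trend called 0 of 9 as well in the noncystic kidneys. Between cystic and noncystic kidneys that both carried Δ17/Δ17, 7 of 9 factors passed, against 23% of all genes. The same 7 showed no overlap, against 37.9% of all genes. Of genes with at least 10 counts in every mouse, 39.5% passed there. For the interaction, the difference of the deletion effects between cystic and noncystic kidneys, edgeR called 0 of 9, against 0.0122% of all genes, and DESeq2 and limma-trend also 0 of 9. An unadjusted p below 0.05 was found for 2 of 9 factors (Tfap2b and Gata3) and for 8.33% of all genes. The comparisons share groups of mice, so their values below stand side by side and are not independent of each other.

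**Figure D1:**
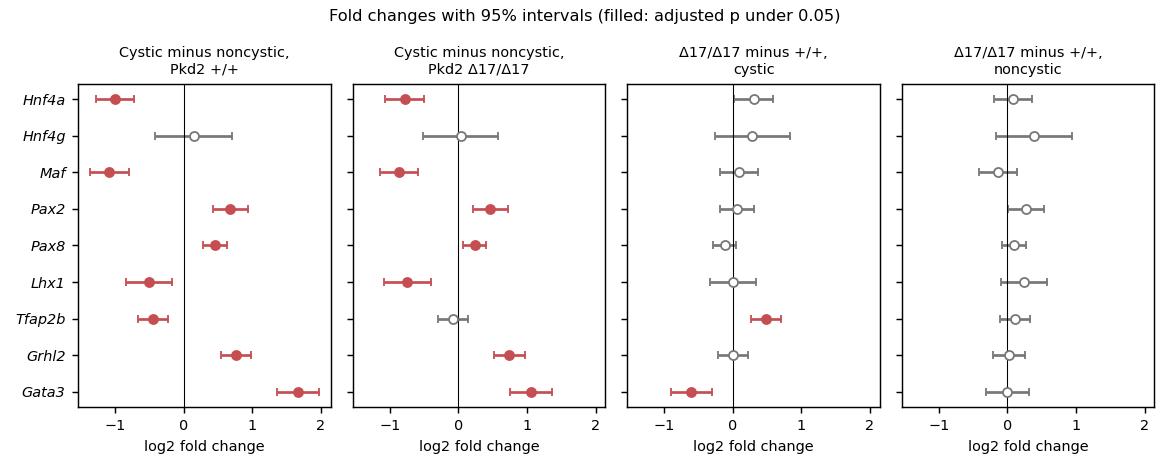
Log2 fold change of each identity factor (points, horizontal axis) with its 95% interval derived from the edgeR test (bars) in the 4 comparisons, filled where the adjusted p was under 0.05. In Pkd2 +/+ mice 8 of 9 points are filled, and between the cystic groups only Tfap2b and Gata3 are.

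Hnf4a (ENSMUSG00000017950, chr2:163506808-163572910, forward strand of GRCm38), the nuclear receptor that drives proximal tubule maturation, was the most abundant of the factors. Its level was 521, 519 and 610 CPM in the noncystic +/+ mice and 330, 225 and 268 CPM in the cystic +/+ mice. All 3 cystic mice lay well below all noncystic ones. The level fell by 50.1%, a log2 fold change of -1.0 ± 0.13 (SE, n = 3 mice a group, edgeR adjusted p = 1.93e-05). With Δ17/Δ17 Hnf4a was at 636, 555 and 559 CPM in noncystic and 375, 361 and 281 CPM in cystic kidneys. The cystic Δ17/Δ17 mice were again all below the noncystic ones (log2 fold change -0.78 ± 0.13, edgeR adjusted p = 0.000345). Between the cystic groups 2 of the 3 Δ17/Δ17 mice lay above every +/+ mouse, and the third did not. That difference of 0.30 ± 0.13 (log2) had an unadjusted p of 0.0352 and did not pass (edgeR adjusted p = 0.296). It passed in 1 of 15 alternatives (9 other fits and 6 that left out a mouse of the compared groups, at the same threshold), the fit with no cutoff on low counts (edgeR adjusted p = 0.0427).

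Hnf4aos, a transcript from the opposite strand at the Hnf4a locus that shares no exon sequence with Hnf4a, was measured at a much lower level. It was at 10.8 to 13.8 CPM in noncystic +/+ and 2.55 to 4.49 CPM in cystic +/+ kidneys, a log2 fold change of -1.72 ± 0.18 (edgeR adjusted p = 2.28e-06). Between the cystic groups Hnf4aos was 0.69 ± 0.19 higher (log2) with Δ17/Δ17 and had no overlap, but did not pass (edgeR adjusted p = 0.0714). The strand setting of the counting is not given in the sources used here, so intronic reads of Hnf4a and reads of Hnf4aos cannot be told apart.

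Hnf4g (ENSMUSG00000017688, chr3:3508030-3658052, forward strand), the close relative of Hnf4a, was the lowest of the factors, with 27 to 78 reads a library. Its level was 1.97, 1.54 and 3.05 CPM in noncystic +/+ and 3.02, 2.11 and 2.12 CPM in cystic +/+ kidneys, and the groups overlapped. The log2 fold change was 0.14 with a 95% interval of -0.41 to 0.70 (edgeR adjusted p = 0.742), and it took the other sign when noncystic mouse 20 or cystic mouse 25 was left out. Overlap remained in the Δ17/Δ17 mice, at 2.73 to 3.14 CPM in noncystic and 2.60 to 3.22 CPM in cystic kidneys. At this depth a change of the size seen for Hnf4a lay outside the interval.

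Within each library the ratio of Hnf4a to Hnf4g reads (log2) was 8.01 ± 0.37 (SD, n = 3) in noncystic +/+ and 6.82 ± 0.13 in cystic +/+ kidneys. In Δ17/Δ17 kidneys it was 7.65 ± 0.18 and 6.83 ± 0.07. For either genotype the cystic mice were all below the noncystic mice in this ratio, and the cystic groups overlapped. These ratios are descriptions with no test.

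Maf (ENSMUSG00000055435, chr8:115682942-115707794, reverse strand), a leucine zipper factor of the proximal tubule, was at 260, 262 and 255 CPM in noncystic +/+ mice, within a narrow band. In the cystic +/+ mice it was at 132, 101 and 132 CPM, a log2 fold change of -1.09 ± 0.13 (edgeR adjusted p = 8.66e-06). With Δ17/Δ17 the levels were 261, 209 and 238 CPM in noncystic and 126, 158 and 104 CPM in cystic kidneys (log2 fold change -0.87 ± 0.13, edgeR adjusted p = 0.000143). Maf therefore stood at less than its lowest noncystic level in all 6 cystic mice. The deletion gave a difference of 0.09 in cystic kidneys with a 95% interval of -0.19 to 0.37 (log2, edgeR adjusted p = 0.837). In noncystic kidneys the difference for Maf was -0.13, with an interval of -0.41 to 0.14. The ratio of Hnf4a to Maf reads overlapped between the cystic and noncystic groups for either Pkd2 genotype.

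The proximal tubule markers moved in the same direction as Hnf4a and Maf. Of 12 markers 12 were lower in cystic +/+ kidneys, with a median log2 fold change of -1.25. They included Pck1, an enzyme of gluconeogenesis (-2.37), Miox (-1.72) and the organic anion transporter Slc22a6 (-1.08). The summed level of these markers was 13675.1 to 17379.8 CPM in noncystic and 3854.8 to 6116.5 CPM in cystic +/+ kidneys. In whole-kidney RNA, fewer cells of a type and less RNA per cell cannot be told apart. Between the cystic groups 2 of 12 markers were higher with Δ17/Δ17, the endocytic receptors Lrp2 (0.64) and Cubn (0.59), and the median was 0.32. Macrophage markers rose in 8 of 8 in cystic +/+ kidneys, from a summed 148 to 159 CPM to 357 to 518 CPM, cell cycle genes in 6 of 6 and tubule injury genes in 4 of 5. Whether changes in cell make-up or in cell state have a part in the values of the factors was not tested. No listed marker was at 0 in every mouse of a group.

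Ratios to these markers are given as descriptions with no test. The log2 ratio of Hnf4a reads to the mean of the 12 markers was -0.21 ± 0.06 (SD) in noncystic and 0.07 ± 0.03 in cystic +/+ kidneys, a difference of 0.27 without overlap. For Maf the ratio overlapped between these groups. For Hnf4g it was -8.22 ± 0.32 and -6.75 ± 0.16, a difference of 1.47 without overlap. The deletion gave overlapping ratios for Hnf4a, Hnf4g and Maf in the cystic kidneys.

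**Figure D2:**
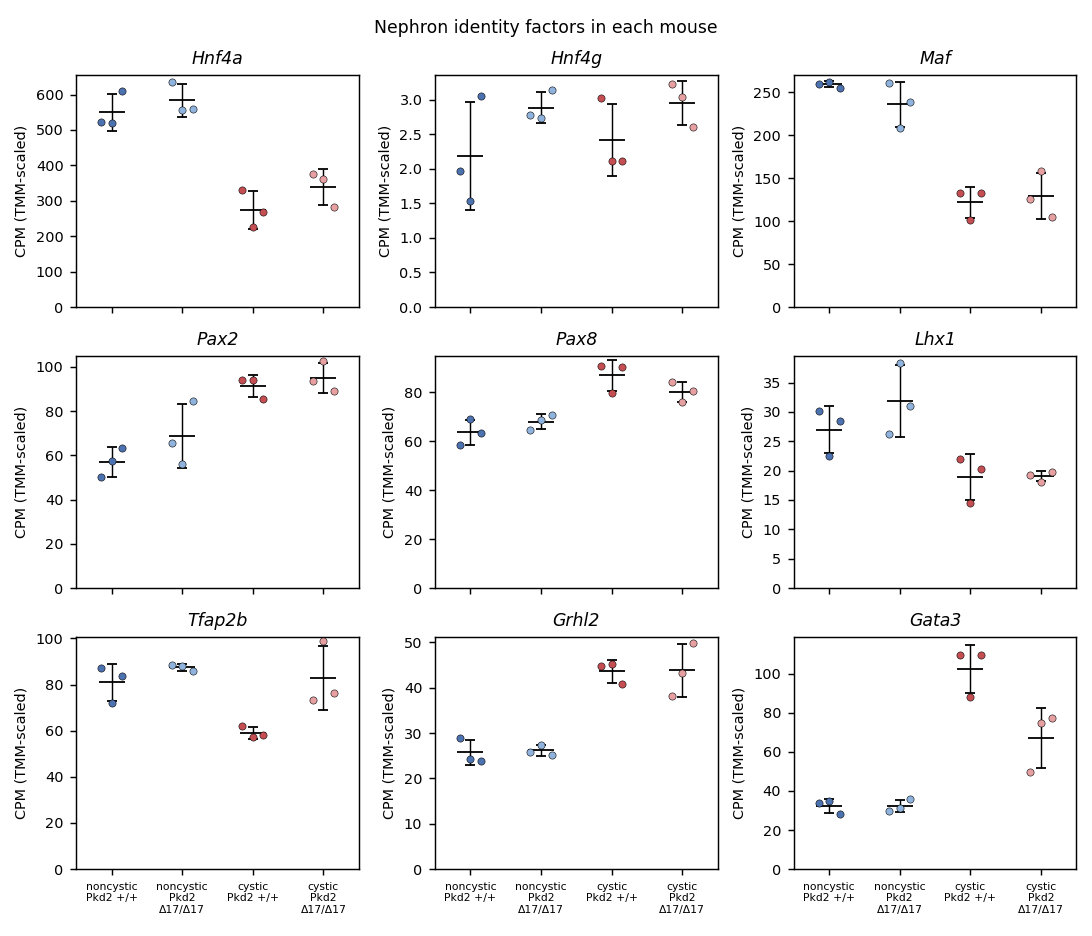
Level of each factor in CPM (vertical axes, from 0) in the 12 mice, with the mean and SD of each group of 3. Hnf4a, Maf and Lhx1 sit lower and Pax2, Pax8, Grhl2 and Gata3 higher in both cystic groups, and Hnf4g overlaps throughout.

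Pax2 (ENSMUSG00000004231, chr19:44756045-44837871, forward strand), a paired-box factor of the early nephron and collecting duct, rose in cystic kidneys. It was at 50.2, 57.3 and 63.4 CPM in noncystic +/+ and 93.9, 94.3 and 85.6 CPM in cystic +/+ mice, without overlap. The log2 fold change was 0.68 ± 0.12 (edgeR adjusted p = 0.000336), or 1.60-fold. With Δ17/Δ17 Pax2 was at 65.7, 56.3 and 84.7 CPM in noncystic and 93.6, 103 and 89.2 CPM in cystic mice. The highest noncystic and the lowest cystic Δ17/Δ17 mouse were close to each other. The difference was 0.47 ± 0.12 (edgeR adjusted p = 0.00938), and it did not pass without noncystic mouse 23 (edgeR adjusted p = 0.0706). In noncystic kidneys Pax2 was the factor with an unadjusted p of 0.0390 for the deletion (log2 0.27), with an edgeR adjusted p of 0.771. In cystic kidneys the deletion difference of Pax2 was 0.06, with an interval of -0.19 to 0.31.

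Pax8 (ENSMUSG00000026976, chr2:24420560-24475599, reverse strand), the paralog of Pax2 that marks tubules along the nephron, was also higher in cystic kidneys. Levels of 58.5, 68.95 and 63.3 CPM in noncystic +/+ mice stood against 90.8, 79.7 and 90.4 CPM in cystic +/+ mice. Pax8 was thus 1.37-fold higher (log2 0.45 ± 0.08, edgeR adjusted p = 0.000331). With Δ17/Δ17 the levels were 64.6, 68.6 and 70.7 CPM and 84.0, 75.9 and 80.5 CPM. This difference of 0.24 ± 0.08 passed narrowly (edgeR adjusted p = 0.0428), and it passed in only 6 of 15 alternatives, with adjusted p-values of up to 0.167. DESeq2, DESeq2 size factors in edgeR, no cutoff on low counts and Xist as a covariate each lost it. Without mice 22, 23, 24, 28 or 30 it did not pass (edgeR adjusted p of 0.167, 0.109, 0.0626, 0.144 and 0.103). The ratio of Pax2 to Pax8 reads overlapped between cystic and noncystic kidneys of either genotype, with log2 differences of 0.23 (+/+) and 0.25 (Δ17/Δ17). The deletion interval of Pax8 between the cystic groups was -0.29 to 0.05 (log2). Pax8 shares 367 exonic bases with Gm13415 on the opposite strand, which held 5 to 19 reads a library.

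Lhx1 (ENSMUSG00000018698, chr11:84518284-84525535, reverse strand), a LIM homeobox factor required for the first nephron structures, went the other way. It was at 30.1, 22.4 and 28.4 CPM in noncystic +/+ and 21.99, 14.5 and 20.3 CPM in cystic +/+ mice. The groups did not overlap, but noncystic mouse 20 and cystic mouse 25 nearly met. Its log2 fold change of -0.51 ± 0.16 passed (edgeR adjusted p = 0.0219), though in only 10 of 15 alternatives. With library totals Lhx1 did not pass (edgeR adjusted p = 0.127, limma-trend adjusted p = 0.118), nor without mice 19, 21 or 26 (edgeR adjusted p of 0.0988, 0.0545 and 0.101). With Δ17/Δ17 Lhx1 was at 26.2, 38.4 and 31.0 CPM in noncystic and 19.2, 18.1 and 19.8 CPM in cystic mice. This wider gap gave -0.74 ± 0.16 (edgeR adjusted p = 0.00237), which passed in 15 of 15 alternatives. Between the cystic groups the interval was -0.34 to 0.34 (log2).

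Other genes of the developing nephron did not move as one group. Of 11 such transcription factors 3 were higher and 5 lower in cystic +/+ kidneys, with a median of -0.16. The highest were the SoxC factors Sox11 (1.61) and Sox4 (1.49), and among the lower ones were Wt1, a factor of podocytes and their precursors (-1.16), and Sall1 (-0.83). Sall1 was also the 1 of 11 that was higher with the deletion in cystic kidneys (0.40 ± 0.10, edgeR adjusted p = 0.0406). Six2, the marker of nephron progenitors, differed by -0.06 with a standard error of 1.04. With an error of this size its change could not be measured.

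Tfap2b (ENSMUSG00000025927, chr1:19208914-19238576, forward strand), an AP-2 factor of the distal convoluted tubule and neighbouring segments, was lower in cystic +/+ kidneys and higher with the deletion. It was at 87.2, 71.97 and 83.7 CPM in noncystic +/+ mice and 62.1, 57.2 and 58.2 CPM in cystic +/+ mice. The cystic mice formed a tight group below the noncystic ones, with a log2 fold change of -0.45 ± 0.10 (edgeR adjusted p = 0.00245). With Δ17/Δ17 Tfap2b was at 88.5, 88.0 and 85.8 CPM in noncystic and 73.1, 98.7 and 76.3 CPM in cystic mice. All 3 cystic Δ17/Δ17 mice were above all 3 cystic +/+ mice, and mouse 29 was above every noncystic mouse too. The deletion difference in cystic kidneys was 0.48 ± 0.10, or 1.40-fold (edgeR adjusted p = 0.0211).

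Cystic and noncystic Δ17/Δ17 kidneys overlapped in Tfap2b, with a difference of -0.08 and an interval of -0.29 to 0.14 (edgeR adjusted p = 0.650), whose sign turned with library totals. The deletion call of Tfap2b held in 11 of 15 alternatives. It did not pass without mice 26, 27 or 29 (edgeR adjusted p of 0.0599, 0.0938 and 0.112) or when only the cystic groups were fitted (edgeR adjusted p = 0.0763). The test of whether the deletion acted differently in cystic and noncystic kidneys gave 0.37 ± 0.14 for Tfap2b, with an unadjusted p of 0.0197 and an edgeR adjusted p of 0.504.

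Distal convoluted tubule markers were lower in 6 of 6 in cystic +/+ kidneys, with a median log2 fold change of -1.50. The 4 with the smallest p were Klhl3, a regulator of sodium chloride transport (-1.29), the calcium-binding proteins Calb1 (-1.80) and Pvalb (-2.44), and the thiazide-sensitive transporter Slc12a3 (-1.70). The fold change of Tfap2b was nearer to 0 than that of any of these markers. Its log2 ratio to their mean was -0.49 ± 0.11 (SD) in noncystic and 0.59 ± 0.32 in cystic +/+ kidneys, and -0.40 ± 0.15 and 0.85 ± 0.07 with Δ17/Δ17. For the deletion in cystic kidneys the median of the 6 markers was 0.26, and the smallest adjusted p was that of Klhl3 (log2 0.35, edgeR adjusted p = 0.236). The ratio of Tfap2b to them overlapped between the cystic groups. Thick ascending limb markers passed in 4 of 7 for that contrast, all higher, with the sodium-potassium-chloride cotransporter Slc12a1 at 0.93 and Egf at 1.12.

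**Figure D3:**
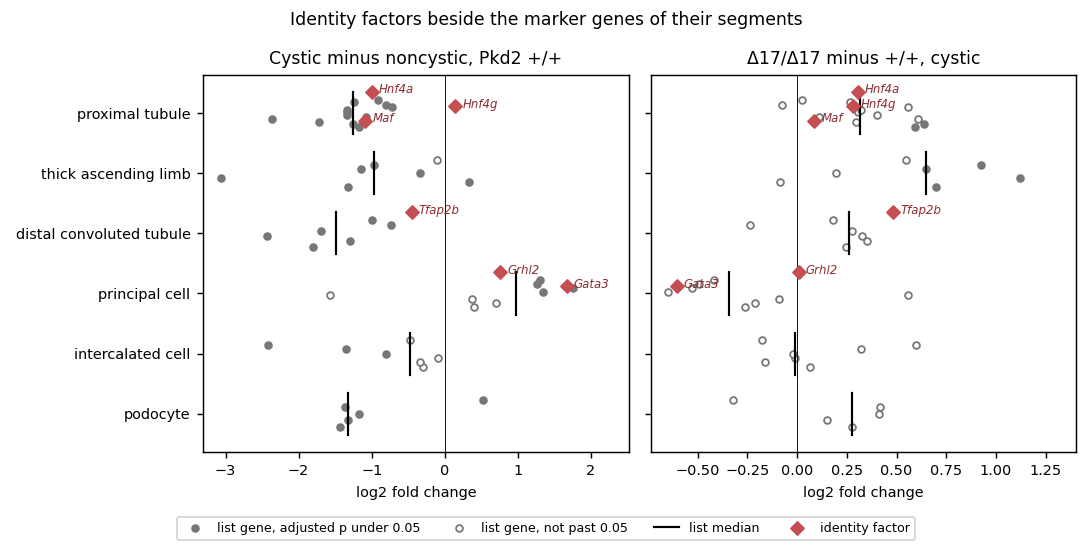
Log2 fold change (horizontal axes) of the marker genes of 6 nephron cell types (circles, filled where the adjusted p was under 0.05, with the list median as a bar) and of the identity factors placed in the row of their segment (diamonds). Left, cystic against noncystic Pkd2 +/+ kidneys, where Hnf4a and Maf lie among the proximal tubule markers and Tfap2b above all distal convoluted tubule markers. Right, the deletion in cystic kidneys.

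Grhl2 (ENSMUSG00000022286, chr15:37233036-37363569, forward strand), a grainyhead factor of tight epithelia in the distal nephron and collecting duct, was higher in cystic kidneys whatever the Pkd2 genotype. It was at 28.97, 24.2 and 23.9 CPM in noncystic +/+ and 44.8, 45.2 and 40.8 CPM in cystic +/+ mice. The cystic mice stood clear of the noncystic ones, with a log2 fold change of 0.76 ± 0.11, or 1.70-fold (edgeR adjusted p = 3.08e-05). With Δ17/Δ17 Grhl2 was at 25.9, 27.4 and 25.2 CPM in noncystic and 38.2, 43.3 and 49.9 CPM in cystic mice (log2 fold change 0.74 ± 0.11, edgeR adjusted p = 7.42e-05). The deletion interval of Grhl2 was -0.21 to 0.23 in cystic and -0.20 to 0.25 in noncystic kidneys (log2). Grhl2 shares 169 exonic bases with the antisense gene Gm16136, which held 224 to 552 reads a library. Without a known strand setting, how reads of these shared bases were counted is not known.

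Gata3 (ENSMUSG00000015619, chr2:9857078-9890034, reverse strand), a zinc finger factor of the ureteric bud lineage, the distal nephron and collecting duct, had the widest change of the 9 factors between cystic and noncystic Pkd2 +/+ kidneys. It was at 33.6, 34.96 and 28.4 CPM in noncystic +/+ mice and 110, 88.4 and 109 CPM in cystic +/+ mice. Gata3 rose 3.17-fold, a log2 fold change of 1.67 ± 0.15 (edgeR adjusted p = 3.20e-07). With Δ17/Δ17 it was at 29.8, 31.3 and 35.9 CPM in noncystic and 49.7, 74.9 and 77.5 CPM in cystic mice. These cystic mice lay between the noncystic and the cystic +/+ groups with no overlap on either side, and mouse 28 was the lowest of them. Gata3 was still 2.08-fold higher than in noncystic Δ17/Δ17 kidneys (log2 1.06 ± 0.15, edgeR adjusted p = 5.24e-05).

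Between the cystic groups Gata3 fell by 34.3% with the deletion (log2 fold change -0.61 ± 0.14, 95% interval -0.91 to -0.31, edgeR adjusted p = 0.0323). The call held in 10 of 15 alternatives. It did not pass without mice 25, 27, 28 or 29 (edgeR adjusted p of 0.0528, 0.139, 0.137 and 0.0728) or with only the cystic groups fitted (edgeR adjusted p = 0.105). In noncystic kidneys the deletion interval of Gata3 was -0.31 to 0.31 (log2). The difference between these effects, -0.61 ± 0.20, had an unadjusted p of 0.00869 and did not pass (edgeR adjusted p = 0.406), but passed with no cutoff on low counts (edgeR adjusted p = 0.00134). Gata3 overlaps 9230102O04Rik by 77 exonic bases and the antisense gene Gm13256 by 155, and these held at most 35 and 11 reads a library.

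Macrophage markers and tubule injury genes moved beside the deletion changes of Tfap2b and Gata3 in cystic kidneys. Macrophage markers were lower with Δ17/Δ17 in 4 of 8, with a median of -0.56, and their summed level was 357 to 518 CPM with +/+ and 267 to 352 CPM with Δ17/Δ17. Tubule injury genes were lower in 4 of 5, with a median of -1.09, and summed to 3701.2 to 4780.9 CPM and 2049.9 to 3714.0 CPM. Their part in the changes of the factors was not tested.

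Principal cell markers of the collecting duct were higher in 4 of 8 in cystic +/+ kidneys, with a median of 0.98. These were Hsd11b2, the enzyme that shields the mineralocorticoid receptor (1.75), the sodium channel subunits Scnn1b (1.26) and Scnn1g (1.30), and Fxyd4 (1.35). The summed level of all 8 markers was 1322.2 to 1444.7 CPM in noncystic and 2191.2 to 3840.3 CPM in cystic +/+ kidneys. Markers of intercalated cells, which also belong to the collecting duct, were lower in 3 of 7 and higher in 0 of 7, with a median of -0.48. The log2 ratio of Gata3 to the principal cell markers was -1.13 ± 0.18 (SD) in noncystic and -0.11 ± 0.35 in cystic +/+ kidneys, a difference of 1.01 without overlap. The size of this difference changed with the markers used. The vasopressin receptor Avpr2 lay near 0, at no more than 0.62 CPM, and the aquaporins Aqp2, Aqp3 and Aqp4 did not pass. Without Avpr2 the difference was 0.71, still without overlap. Against only the 4 markers that passed, a choice made after seeing the data, it was 0.25 and the groups overlapped. For Grhl2 the ratio to all 8 markers overlapped, at -1.46 ± 0.08 and -1.34 ± 0.32. Without Avpr2 it also overlapped, with a log2 difference of -0.19. Against the 4 that passed, the Grhl2 ratio was lower in cystic kidneys by a log2 difference of -0.65, without overlap. Those 4 were kept for being higher in this same comparison, which lowers any ratio to them. No conclusion is drawn from the ratios to them, for Gata3 or for Grhl2. In Δ17/Δ17 kidneys the Gata3 ratio overlapped between noncystic (-0.77 ± 0.44) and cystic mice (-0.52 ± 0.27). With the deletion in cystic kidneys the 8 markers had a median of -0.34, and the smallest adjusted p was that of Scnn1b (-0.50, edgeR adjusted p = 0.0564).

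**Figure D4:**
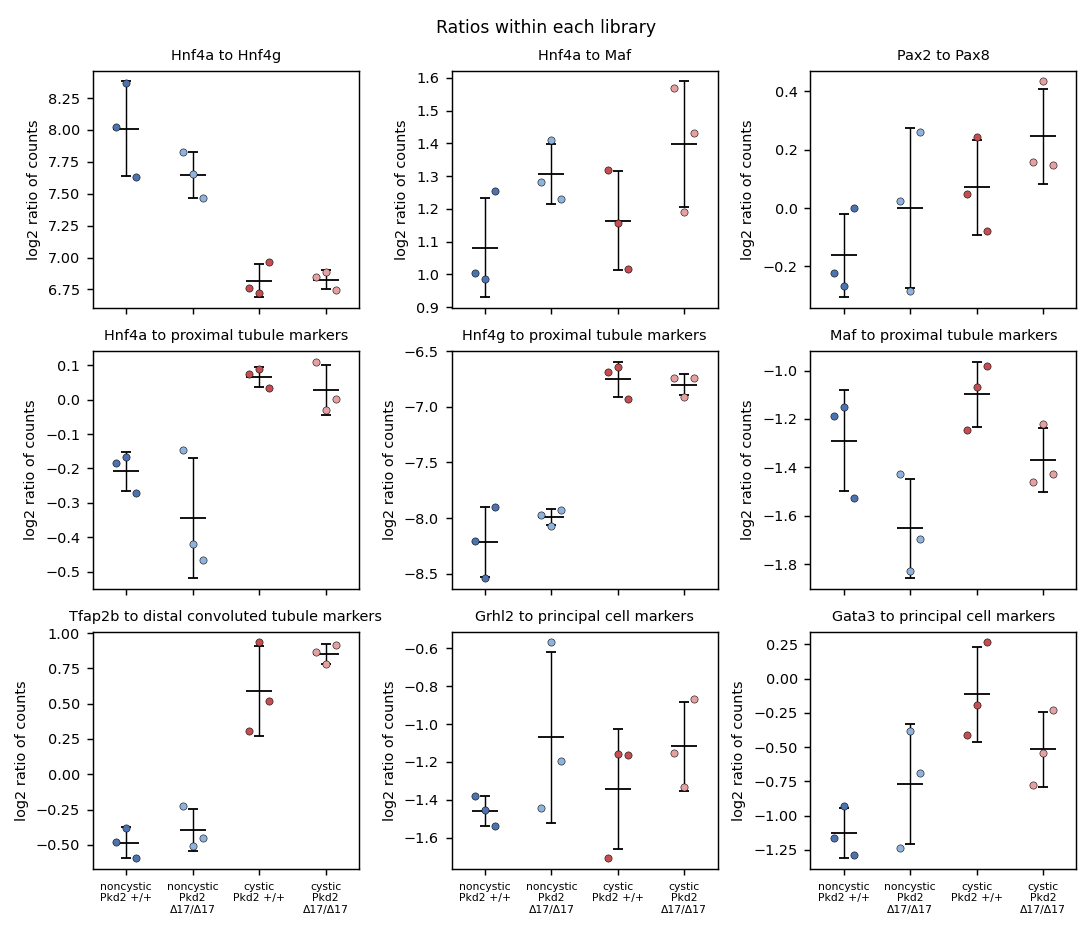
Log2 ratio of read counts within each library for pairs of factors and for factors against the mean of their segment's marker genes (vertical axes), by mouse, with the mean and SD of each group of 3. Hnf4a to Hnf4g lies lower, and Hnf4g to proximal tubule and Tfap2b to distal convoluted tubule markers higher, in the cystic than in the noncystic mice of either genotype.

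A list of 39 other transcription factors of the kidney was read beside the identity factors. Of those 39 factors 13 were higher and 21 lower in cystic +/+ kidneys, with a median of -0.58, against a median of 0.02 over all genes tested. Of all genes tested 16.9% were higher and 14.2% lower, and 49.7% passed among genes with at least 10 counts in every mouse. The proximal and pan-tubule group had 5 of 6 lower and 1 higher. The bile acid receptor Nr1h4 (-1.0), Emx1 (-1.55), Osr2 (-1.04) and the nuclear receptor Esrrg (-0.58) fell.

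Loop and distal factors were lower in 5 of 7 and higher in 1 of 7 in cystic +/+ kidneys. For the deletion in cystic kidneys 4 of 7 were higher and 1 lower, with a median of 0.58. The ones that rose with the deletion were Esrrb (0.76 ± 0.12, edgeR adjusted p = 0.00320), the Iroquois factors Irx1 (0.58) and Irx2 (0.65), and Prox1 (1.2). Tfap2b moved in the same direction as these 4. Tfap2a, its AP-2 relative, did the opposite. It was at 6.79 to 7.74 CPM in noncystic and 20.1 to 28.2 CPM in cystic +/+ kidneys (log2 1.73 ± 0.17, edgeR adjusted p = 8.26e-07), and at 11.1 to 17.3 CPM in cystic Δ17/Δ17 kidneys (-0.71 ± 0.16 against cystic +/+, edgeR adjusted p = 0.0301).

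Collecting duct factors were higher in 7 of 9 and lower in 1 of 9 in cystic +/+ kidneys, with a median of 0.56. Elf5, an ETS factor (1.73), Gata2, the relative of Gata3 (1.18), Dmrt2 (1.26) and Emx2 (0.69) led by p. For the deletion in cystic kidneys 1 of 9 was lower, Elf5 (-0.84 ± 0.19, edgeR adjusted p = 0.0322), and the median was -0.19. Gata2 was at 131 to 171 CPM with +/+ and 96.1 to 132 CPM with Δ17/Δ17, which overlapped. Podocyte and stromal factors were lower in 5 of 6 and higher in 1 of 6 in cystic +/+ kidneys, beside 4 of 5 podocyte markers that were lower and 1 that was higher. In noncystic kidneys the median deletion change of the 39 factors was 0.03.

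**Figure D5:**
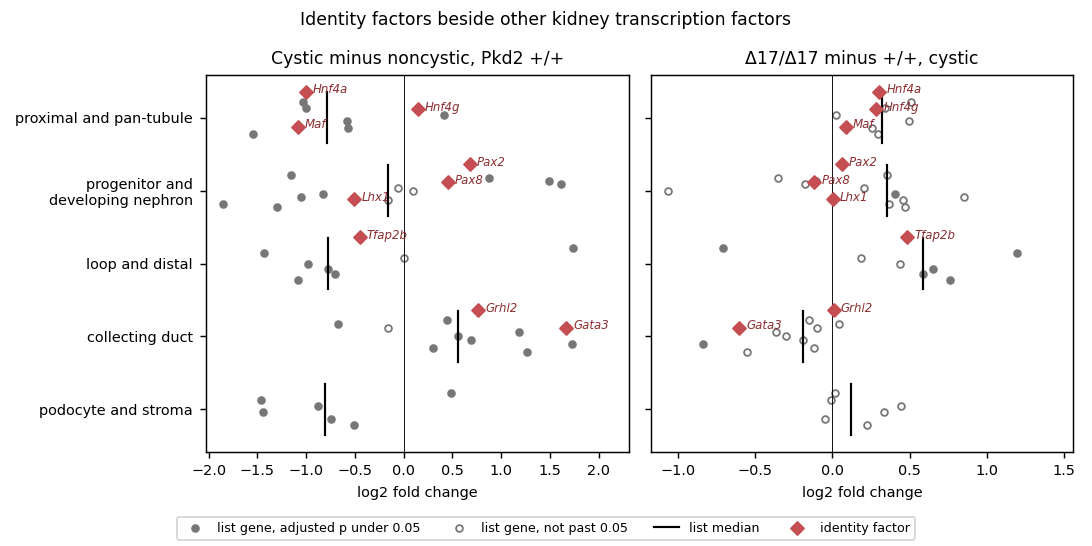
Log2 fold change (horizontal axes) of 39 other kidney transcription factors in 5 groups (circles, filled where the adjusted p was under 0.05, with the group median as a bar) and of the identity factors (diamonds). Left, cystic against noncystic Pkd2 +/+ kidneys, and right, the deletion in cystic kidneys, where 4 loop and distal factors and Tfap2b are to the right of 0 and Gata3, Tfap2a and Elf5 to the left.

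Compared per length, the order of the factors changed with disease. In noncystic +/+ kidneys the level in CPM per kilobase of annotated exon was highest for Hnf4a (114 ± 10.8, SD, n = 3), then Maf (31.5 ± 0.42), and then Tfap2b (12.8), Pax2 (10.5) and Pax8 (10.5), of which neighbours overlapped. Gata3 (8.13) and Lhx1 (6.62) also overlapped and stood above Grhl2 (2.98) and Hnf4g (0.83). In cystic +/+ kidneys Hnf4a was still first (56.8 ± 10.9), and Gata3 came next with 25.8 ± 3.08, above Pax2 (16.9), Maf (14.8) and Pax8 (14.3). In cystic Δ17/Δ17 kidneys Pax2 (17.6), Gata3 (16.9), Maf (15.7), Pax8 (13.2) and Tfap2b (13.1) followed Hnf4a (70.2), and each overlapped its neighbour in the order.

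To describe which genes had the most similar profiles, log2CPM values centred on each gene's mean over the 12 mice were compared by root mean square difference among 13690 genes. For Hnf4a the nearest were Nr1h4 (0.06), the sodium bicarbonate cotransporter Slc4a4 (0.07) and Amacr (0.07), where the median gene differed by 0.54. For Gata3 they were Tfap2a, Lix1 and Rec8 (0.12 to 0.13, against 0.73 for the median gene). Tfap2b was closest to Cachd1, Rap1gap and Pld1 (0.09 to 0.10, against 0.33). Nearest to Maf were Gm10925 and the mitochondrial transcripts mt-Nd1 and mt-Cytb (0.07 to 0.10, against 0.57).

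The profile of Grhl2 was nearest to Arl15, Haus6 and Rnd3, that of Lhx1 to Myo15b, Frs3 and Rmnd1, and that of Pax2 to Evpl, Jade3 and Wdr35. Pax8 was nearest to Bud13, Ankrd27 and Ess2 (0.07 to 0.08, against 0.28 for the median gene). Hnf4g was nearest to Adcy9 (0.11), Farp2 and Snx30. All mice and the group differences enter this measure, so that any gene with the same group means is near. It is a description with no test.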

How the data were processed

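Total RNA of whole kidneys from 12 mice was sequenced. The authors trimmed reads with Trim Galore 0.6.3 and aligned them to GRCm38 with STAR 2.5.3a (versions in the submitters' processing notes), which also counted reads on Ensembl gene models, and deposited raw counts per gene without normalization. The strand setting of the counting is not given in the sources used here. Groups and mouse numbers were taken from the labels. Genes without a name (343) held 0.0225% of the reads. GENCODE M21 (GRCm38) gave exons, coordinates and 3′-UTRs and held 99.77% of the identifiers. The microRNA sequence is from RefSeq.

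Counts were analysed in R 4.3.3. Genes whose mean log2CPM reached -3 entered the quasi-likelihood test of edgeR 4.0.16, scaled by TMM, in a fit of the 12 mice with a mean for each of the groups (residual degrees of freedom 8), Benjamini-Hochberg adjustment over all genes and a threshold of 0.05. CPM values are scaled by TMM. Alternatives were limma-trend (limma 3.58.1) on library totals, DESeq2 1.42.0, other scalings and cutoffs, Xist as a covariate, the compared groups only, a threshold of 0.01 and leaving out each mouse. The code was tested on simulated data. Ratios within a library were log2 of counts plus 0.5, against the mean over the markers, and were not tested. The text names all 9 factors, in each list at most 4 genes with the smallest p in a contrast, further genes as paralogs of the factors or as the members that passed (some list members are not reported here), and the 3 nearest profiles among genes whose mean log2CPM reached 1. The factors and the lists were chosen with earlier results of these data known, so they are not independent evidence.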

Additional observations from a re-analysis of the deposited data

How the results depend on the processing

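Counts of called factors in cystic against noncystic kidneys stayed within 1.5 times under every alternative run. For the deletion in cystic kidneys the count of 2 became 0 at a threshold of 0.01 and 0 with only the compared groups fitted, and it was 0 to 2 when 1 mouse was left out. It was 0 without mouse 27 and without mouse 29. For the difference of the deletion effects between cystic and noncystic kidneys the count of 0 became 1 (Gata3) with no cutoff on low counts. The cause of these moves was not tested. Fits that left out a mouse or used only the compared groups also held fewer mice.

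Signs that turned all belonged to values that had not passed the test. With library totals the change of Tfap2b between cystic and noncystic Δ17/Δ17 kidneys became 0.060 (limma-trend) and 0.071 (edgeR). The deletion change of Gata3 in noncystic kidneys became -0.0027 (DESeq2) and -0.0024 (DESeq2 size factors), and the interaction of Grhl2 became 0.022 with Xist as a covariate. Leaving out 1 mouse at a time gave ranges across 0 for Hnf4g (-0.079 to 0.44 in cystic against noncystic +/+, -0.034 to 0.12 with Δ17/Δ17, -0.42 to 0.0997 for the interaction), for Maf (-0.081 to 0.22), Lhx1 (-0.15 to 0.13) and Grhl2 (-0.097 to 0.097) under the deletion in cystic kidneys, for Grhl2 (-0.027 to 0.12) and Gata3 (-0.087 to 0.052) in noncystic kidneys, for Tfap2b (-0.23 to 0.0014) between cystic and noncystic Δ17/Δ17 kidneys, and for the interaction of Grhl2 (-0.12 to 0.072). The 36 differences of ratios moved by less than 1 SD in 252 values under the other settings, and those to principal cell markers moved with the markers used, a choice added after seeing the data.

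Over all genes the deletion in cystic kidneys called 549 genes in the main fit, 1128 with DESeq2, 1639 with no cutoff and 167 with the compared groups only. Leaving out 1 mouse at a time gave 118 (mouse 29), 127 (mouse 28), 130 (mouse 27), 399 (mouse 26), 759 (mouse 30) and 861 (mouse 25). In noncystic kidneys it called 1 gene, 3 with DESeq2, 2 with the compared groups only and 124 with no cutoff. The interaction called 3 genes, and 0 (filterByExpr) to 566 (no cutoff) under the alternatives, with up to 61 when 1 mouse was left out. In cystic against noncystic Δ17/Δ17 kidneys the split of 3164 higher to 2515 lower genes became 5334 to 1657 with library totals. No paired analysis was possible because the groups share no mouse numbers. Nothing in the labels ties mice to litters, and p-values measure the spread between these mice only. With 3 mice a group and 27 to 78 reads, changes of Hnf4g within its interval could not be told from 0.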
